A study of Mus musculus with 16 samples.

Results

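The genes of the motile cilium and of its transcriptional program were examined in the RUS knockdown experiment. RUS is a long noncoding RNA, listed as Gm20754, that the study examined in differentiating neural stem cells (NSC). The set holds 53 named genes, chosen as the rows of the 2 expression tables whose gene symbol equals a member, and 51 of them were matched among 55468 gene-named lines on day 5 and 55471 on day 7. Of these 51 genes, 9 are regulators of multiciliation, 38 encode parts of the axoneme or proteins that assemble it, and 4 are other genes of multiciliated cells. The remaining 2 members, Dnai1 and Dnai2, stand in the tables under their older symbols Dnaic1 and Dnaic2 and are described separately at the end.

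PolyA RNA was sequenced from NSC of E15 to E16 C57BL/6 mouse cortices, grown as adherent monolayers and carried into neuronal differentiation. The cells of all 4 groups had received a lentiviral shRNA. The control, shRNA-CON, carried a scrambled sequence and the knockdown, shRNA-RUS, carried a sequence against RUS. Cells were collected on day 5 or day 7 after seeding, with 4 libraries for each shRNA and day, 16 in all. Per the labels, all groups were expanded in medium with FGF2, B27 and serum and then differentiated in Neurobasal with GlutaMAX and B27 from day 5, so that the day 5 libraries stand at the start of differentiation. The model has limits: the cells came from pooled embryos of mixed sex, a single shRNA sequence defined the knockdown, and the labels do not say that the 4 libraries of a group came from separate cultures. The p-values therefore measure the spread between these libraries, which may be technical.

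The tables give TPM, a unit of transcript abundance that corrects for length and is scaled within each library, and no counts, so the depth is unknown and no counting interval is given. TPM summed to between 996142.9 and 1000000.7 per library, and between 25612 and 29126 lines were above 0. Levels are quoted below as scaled TPM, which is TPM divided by a library factor that aligns the bulk of genes over the 16 libraries. The days stand in separate tables, and whether their libraries were prepared together is not given in the sources used here. The targeted transcript Gm20754 was near the bottom of the scale, at 0.11 to 0.24 TPM with shRNA-CON and 0 to 0.32 TPM with shRNA-RUS on day 5 (log2 fold change −0.40, limma adjusted p = 0.519), and at 0.26 to 0.72 and 0 to 0.54 TPM on day 7 (−1.28, limma adjusted p = 0.114). The shRNA groups overlapped for this transcript on both days, so these values neither separate the groups nor check their labels.

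Multiciliated cells, such as the ependymal cells that line the brain ventricles, carry many beating cilia, each built on its own centriole. Ependymal cells descend from radial glia: the coiled-coil proteins Gmnc and Mcidas, acting with E2F factors, and the p53 relative Trp73 start the program, Deup1, Ccno and Cdc20b act in the mass production of centrioles, and Foxj1, Rfx2 and Rfx3 drive the genes of the cilium itself. The axoneme that these factors switch on is a ring of doublet microtubules around a central pair, moved by outer and inner dynein arms and held together by nexin links, radial spokes and filaments inside the doublets.

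RFX factors bind an element called the X-box, made of 2 arms, and forkhead factors such as Foxj1 bind a short core. Promoters (250 bases before to 50 after the RefSeq start, GRCm38.p6) were found for 42 of the 51 members, 50 promoters in all, and were searched on both strands. The X-box arm GTTGCC stood in 42% of the member promoters, 21 of 50, and in 12.5% of all 32851 promoters of the same length. It stood in 46.5% of the promoters of other motile cilium genes and in 37.9% of those of primary cilium and intraflagellar transport genes, so other cilium genes held it at a like share. It stood in 54.5% of the regulator promoters, 6 of 11, and in 34.3% of the axonemal promoters, 12 of 35. The forkhead core TGTTTA stood in 18% of the member promoters and in 13.4% of all promoters, and in 0 of the 11 regulator promoters. The whole X-box, GTTNCC and GGNAAC with any pair of bases between them, stood in 1 member promoter, that of Ccdc151, in 6.9% of the primary cilium and intraflagellar transport promoters and in 0.451% of all promoters. A match says that these letters are there and not that a factor binds them. Shown are 6 promoters that hold these letters and whose genes are described below. Capitals mark the arm, the core or the whole X-box, with GGCAAC and TAAACA as the same words on the opposite strand. Mcidas, which was near 0 on day 5, at chr13:112993618-112993917 on the plus strand, holds an arm that begins 195 bases before the start, and its neighbour Ccno, at chr13:112987552-112987851 on the plus strand, holds one 219 bases before it. Tekt1, at chr11:72361833-72362132 on the minus strand, holds arms 35 and 15 bases before its start. Tekt2, the member that was higher in the knockdown on both days, at chr4:126325597-126325896 on the minus strand, holds arms 138 and 64 bases before its start, so these letters are shared by a gene that fell and a gene that rose. Ccdc151, at chr9:22002585-22002884 on the minus strand, holds the whole X-box 34 bases before its start. Dnah12, at chr14:26691304-26691603 on the plus strand, holds forkhead cores 94 and 28 bases before its start.
Mcidas: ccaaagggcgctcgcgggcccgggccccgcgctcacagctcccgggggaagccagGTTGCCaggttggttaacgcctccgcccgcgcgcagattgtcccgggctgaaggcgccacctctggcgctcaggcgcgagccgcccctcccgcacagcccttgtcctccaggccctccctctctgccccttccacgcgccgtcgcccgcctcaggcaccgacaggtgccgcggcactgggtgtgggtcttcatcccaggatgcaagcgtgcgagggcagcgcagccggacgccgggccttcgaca
Ccno: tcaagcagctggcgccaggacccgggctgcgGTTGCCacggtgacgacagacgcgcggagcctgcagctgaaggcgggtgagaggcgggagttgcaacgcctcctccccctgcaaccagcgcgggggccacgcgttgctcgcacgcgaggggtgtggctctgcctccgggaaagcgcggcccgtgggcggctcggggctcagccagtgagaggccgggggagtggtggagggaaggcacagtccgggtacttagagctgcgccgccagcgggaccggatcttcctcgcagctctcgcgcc
Tekt1: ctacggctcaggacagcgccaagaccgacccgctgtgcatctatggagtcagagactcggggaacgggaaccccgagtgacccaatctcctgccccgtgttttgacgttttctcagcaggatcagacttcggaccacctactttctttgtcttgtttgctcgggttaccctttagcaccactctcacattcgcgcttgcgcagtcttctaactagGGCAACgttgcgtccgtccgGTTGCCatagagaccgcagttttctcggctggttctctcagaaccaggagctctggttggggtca
Tekt2: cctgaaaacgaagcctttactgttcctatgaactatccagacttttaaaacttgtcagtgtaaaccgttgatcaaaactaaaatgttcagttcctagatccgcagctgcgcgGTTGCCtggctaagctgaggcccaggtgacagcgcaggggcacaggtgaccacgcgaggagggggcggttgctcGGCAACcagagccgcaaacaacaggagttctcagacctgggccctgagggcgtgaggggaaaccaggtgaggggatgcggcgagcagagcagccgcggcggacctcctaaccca
Ccdc151: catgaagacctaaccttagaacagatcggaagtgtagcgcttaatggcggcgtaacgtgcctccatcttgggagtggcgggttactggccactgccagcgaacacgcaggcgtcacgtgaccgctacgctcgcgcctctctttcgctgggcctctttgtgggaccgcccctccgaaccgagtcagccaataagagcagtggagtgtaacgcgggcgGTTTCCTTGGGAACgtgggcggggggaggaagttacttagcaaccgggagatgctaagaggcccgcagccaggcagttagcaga
Dnah12: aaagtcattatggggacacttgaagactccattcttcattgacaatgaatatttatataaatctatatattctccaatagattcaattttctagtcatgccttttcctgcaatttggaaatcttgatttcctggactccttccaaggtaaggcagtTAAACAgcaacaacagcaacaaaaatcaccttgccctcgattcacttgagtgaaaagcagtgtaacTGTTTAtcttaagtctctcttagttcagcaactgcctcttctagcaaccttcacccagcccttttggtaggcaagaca

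The whole set was present in these cultures and its level differed by day and by shRNA. The summed level of the 51 genes was 936 ± 40.6 scaled TPM in shRNA-CON on day 5 (SD, n = 4, range 903 to 996) and 764 ± 31.1 in shRNA-RUS (range 738 to 808). On day 7 it was 2206 ± 60.3 in shRNA-CON (range 2140 to 2270) and 1192 ± 93.4 in shRNA-RUS (range 1104 to 1318). The 4 groups did not overlap in this sum. The order of the group means from low to high was shRNA-RUS day 5, shRNA-CON day 5, shRNA-RUS day 7 and shRNA-CON day 7 for 35 of the 51 genes. Another 9 genes had shRNA-RUS on day 7 below shRNA-CON on day 5, and 4 had their lowest mean in shRNA-RUS on day 7. The last 3, Tekt2, Tmem212 and Drc1, each had an order of their own.

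**Figure D1:**
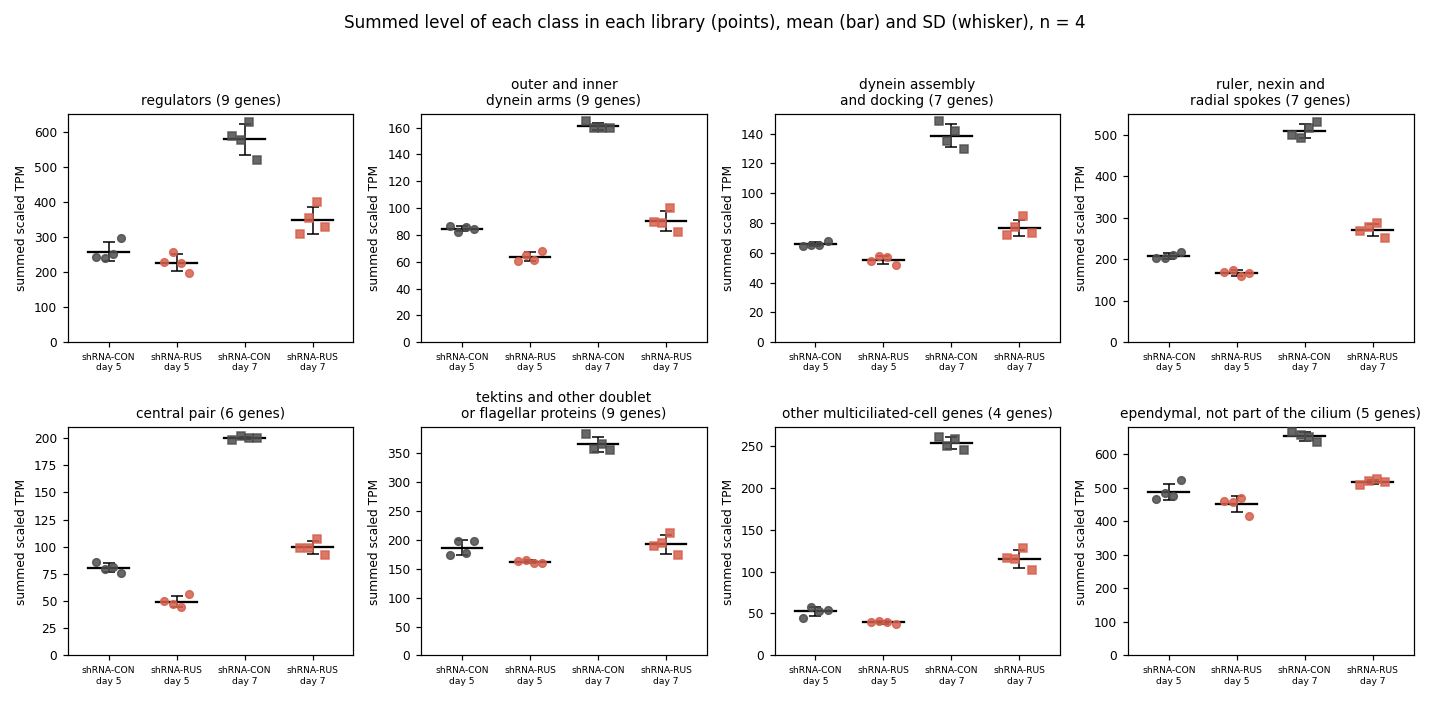
Summed scaled TPM of each class of member genes, and of 5 ependymal marker genes that are not part of the cilium, in each of the 16 libraries. Points are libraries, bars are means and whiskers are SD (n = 4). In the member classes shRNA-CON on day 7 stands highest, and the regulators' sum ranges from 519.9 to 627 there.

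Levels per gene spanned a wide range. In shRNA-CON on day 5 the group means ran from 0.132 to 198 scaled TPM with a median of 11.5, and 45 of 51 genes were at 1 scaled TPM or more. In shRNA-CON on day 7 they ran from 2.12 to 332 with a median of 25.7, and all 51 genes were at 1 or more. In shRNA-RUS the median was 7.66 on day 5 and 14.9 on day 7. Foxj1, the forkhead factor that drives motile cilium genes, had the highest mean on each day in shRNA-CON.

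The comparison of day 7 with day 5 in shRNA-CON asks how the program moved as control cultures differentiated. It rose: 50 of the 51 genes were called higher (limma, Benjamini-Hochberg adjusted p under 0.05) against 26.9% of all 23789 genes tested, and 1, Drc1, was called lower against 21.6%. The regulators rose by a median of 6.58-fold over the 9 genes, with Cdc20b, Mcidas, Deup1 and Ccno at the top, and the median over the 38 axonemal genes was 2.23-fold. In 50 genes every day 7 library stood above every day 5 library, which held for 26.1% of all genes tested. The median log2 difference was 1.22 over the 51 members and 0.07 over all genes. With TPM as deposited the median of all genes moved to 0.205, the calls over all genes went from 6394 higher and 5133 lower to 8573 and 3434, and 50 members were still called higher and 0 lower.

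Cdc20b, a gene of the centriole-producing program next to Ccno and Mcidas on chromosome 13, was at 0.854, 0.382, 0.649 and 0.949 scaled TPM in the 4 shRNA-CON libraries of day 5 and at 30.2, 27.1, 30.3 and 30.1 on day 7. All 4 day 5 libraries were below 1 and all 4 day 7 libraries above 27, a rise of 38-fold (log2 fold change 5.25, SE 0.20, limma adjusted p = 1.02e-11). Mcidas, the coregulator that commits cells to multiciliation, went from 0.863, 0.626, 1.05 and 1.13 to 26, 24.9, 28.3 and 23.6. Its groups did not overlap either, and it rose 25.8-fold (log2 fold change 4.69, SE 0.15, limma adjusted p = 1.69e-12). Deup1, which builds the deuterosomes on which new centrioles form, went from 3.81, 3.33, 3.44 and 3.71 to 63.4, 60.6, 62.5 and 64.8 (log2 fold change 4.10, SE 0.077, limma adjusted p = 1.25e-14). Ccno, the cyclin O of centriole amplification, went from 5.59, 5.83, 4.81 and 6.88 to 55, 51.3, 51.2 and 41.6 (log2 fold change 3.09, SE 0.12, limma adjusted p = 2.31e-11). In neither gene did the days come near each other. Trp73, which encodes p73, went from 1.07, 1.22, 0.608 and 0.834 to 6.8, 7.15, 6.92 and 5.37 (log2 fold change 2.72, SE 0.18, limma adjusted p = 5.77e-09). The lowest day 7 library of Trp73 was still above the highest of day 5.

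The 4 remaining regulators were already well above 1 scaled TPM on day 5 and rose less. Gmnc, which acts upstream of Mcidas, went from 10.4, 7.71, 9.37 and 10.1 to 17.9, 18.1, 18.8 and 20.5 (log2 fold change 1.00, SE 0.15, limma adjusted p = 3.85e-05). Foxj1 went from 181, 184, 190.1 and 237 to 335, 335, 375 and 284 (log2 fold change 0.75, SE 0.12, limma adjusted p = 8.44e-05). The days did not overlap in either gene, although the fourth day 5 library of Foxj1 stood far above the other 3. Rfx3 went from 21.9, 18.2, 19.6 and 17.8 to 28.2, 28.5, 29.7 and 29.7 (log2 fold change 0.58, SE 0.11, limma adjusted p = 0.000253). Rfx2 went from 18.9, 18.4, 20.5 and 19.5 to 25.7, 25, 24.5 and 20.8 (log2 fold change 0.31, SE 0.088, limma adjusted p = 0.00837). In these RFX genes the lowest day 7 library lay just above the highest day 5 library for Rfx2 and well above it for Rfx3.

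**Figure D2:**
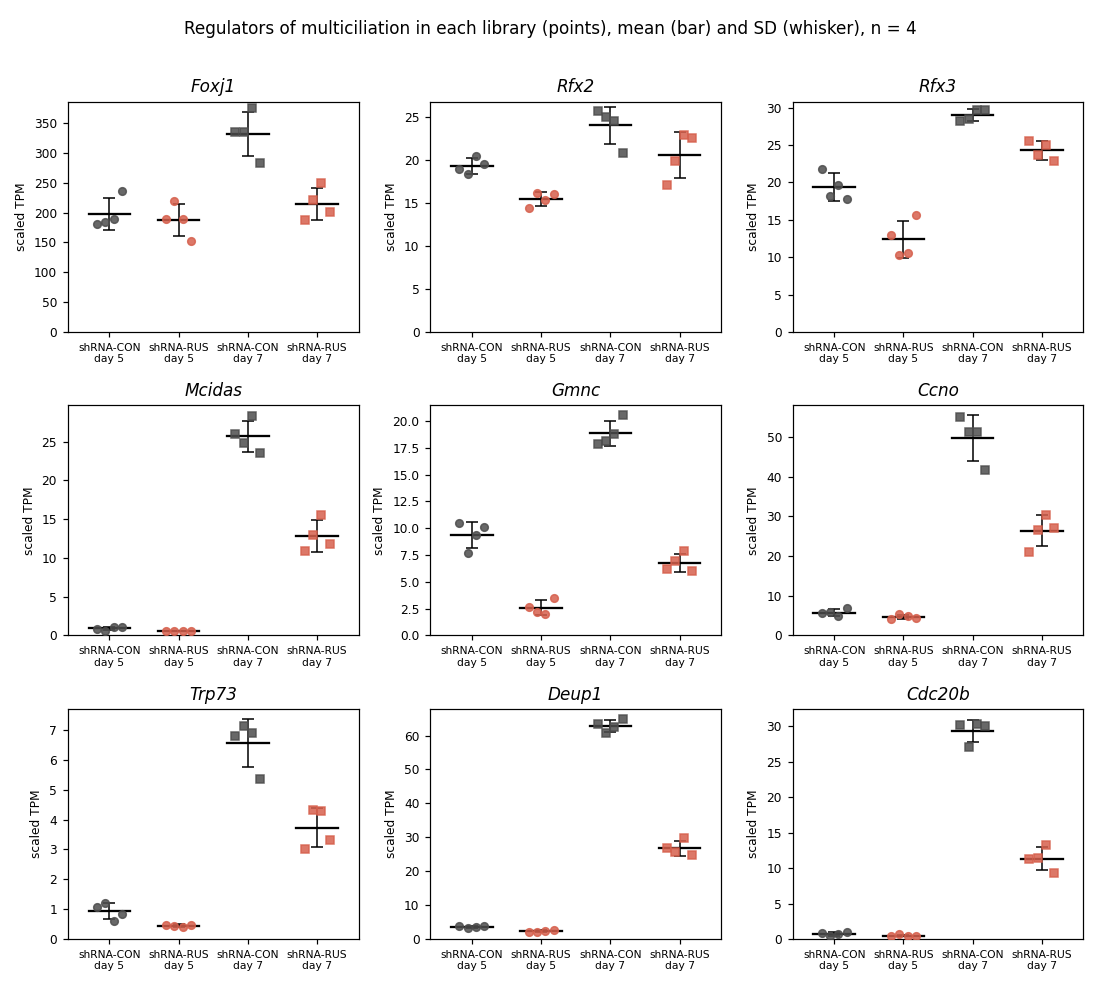
Level of each of the 9 regulators in scaled TPM in the 16 libraries, by shRNA and day. Points are libraries, bars are means and whiskers are SD (n = 4). Mcidas and Cdc20b are near 0 on day 5 in both shRNA groups, and each regulator has a higher mean in shRNA-CON than in shRNA-RUS on both days.

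Among the axonemal genes the rise in shRNA-CON is given by part, with no test between the parts. The 6 central pair genes rose by a median log2 difference of 1.70, led by Spag17 (12.7-fold) and Hydin (6.6-fold), 2 large proteins of the central pair. Spag17 was at 0.0834 to 0.226 scaled TPM in shRNA-CON on day 5, so the 0.1 added before the log2 understates its rise. The 9 dynein arm genes rose by a median of 0.90, with Dnah12 (7.76-fold) and Dnah6 (6.1-fold), both inner arm heavy chains, well above the others, which rose between 1.29-fold (Dnah1) and 2.48-fold (Dnah5). The 7 assembly and docking genes rose by a median of 1.22, from 1.29-fold for Dnaaf3 to 5.18-fold for Dnaaf1, which both act in the cytoplasm on dynein arms before they enter the cilium. Of the 7 genes of the ruler, nexin links and spokes, 6 rose, among them Ccdc39 (4.58-fold), which with Ccdc40 sets the repeat length of the axoneme. The 9 tektins and other doublet or flagellar genes rose by a median of 1.15, with Cfap65 (10.1-fold) at the top and Tekt2 (1.17-fold) at the bottom. The call of Tekt2 was lost in 11 of 24 alternative settings, among them without each single control library and with quantile normalization, where its difference was −0.01. The call of Dnah1 was lost with quantile normalization and without the second control library of day 5, the second control library of day 7 or the third, where its log2 difference was between 0.32 and 0.35. The 4 other multiciliated-cell genes rose by a median of 2.44, with Tmem212 (19.2-fold) and Ccdc153 (8.97-fold) foremost.

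The comparison of shRNA-RUS with shRNA-CON on day 5 asks what the knockdown changed before the rise between the days. Of the 51 genes, 31 were called lower, against 17.9% of all 22581 genes tested, and 2, Tekt2 and Tmem212, were called higher, against 14.8%. The median log2 difference was −0.39 over the members and −0.06 over all genes. In 30 members every knockdown library was below every control library, which held for 18.7% of all genes. With TPM as deposited the median of all genes moved to −0.205, the calls over all genes went from 3349 higher and 4034 lower to 1768 and 6037, and 42 members were called lower and 2 higher. In bulk libraries such as these, fewer cells of a type and less RNA per cell cannot be told apart.

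Of the 9 regulators, 5 fell on day 5, with a median over the class of 0.684-fold. Gmnc fell most of the members: it was at 10.4, 7.71, 9.37 and 10.1 scaled TPM in shRNA-CON and at 2.7, 2.21, 1.97 and 3.52 in shRNA-RUS. The highest knockdown library stood far below the lowest control library, and the level was estimated at 28% of control (log2 fold change −1.83, SE 0.17, limma adjusted p = 9.37e-05). Trp73 was at 0.485, 0.444, 0.393 and 0.474 in shRNA-RUS against 1.07, 1.22, 0.608 and 0.834 in shRNA-CON, without overlap (log2 fold change −0.86, SE 0.22, limma adjusted p = 0.0146). Rfx3 was at 13, 10.3, 10.6 and 15.6 against 21.9, 18.2, 19.6 and 17.8, without overlap, although the fourth knockdown library lay nearest to the controls (log2 fold change −0.66, SE 0.13, limma adjusted p = 0.00476). Deup1 was at 2.11, 2.2, 2.45 and 2.66 against 3.81, 3.33, 3.44 and 3.71 (log2 fold change −0.58, SE 0.11, limma adjusted p = 0.003), and Rfx2 at 14.4, 16.2, 15.3 and 16.1 against 18.9, 18.4, 20.5 and 19.5 (log2 fold change −0.32, SE 0.065, limma adjusted p = 0.00519). Both genes were lower in each knockdown library than in any control library.

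The 4 other regulators did not pass the test on day 5. Foxj1 was at 189, 219.6, 189.6 and 152 in shRNA-RUS, a range that spans most of its control values of 181, 184, 190.1 and 237 (log2 fold change −0.08, SE 0.12, limma adjusted p = 0.67). Ccno was at 4.24, 5.35, 4.93 and 4.42 against 5.59, 5.83, 4.81 and 6.88 and overlapped (log2 fold change −0.27, SE 0.12, limma adjusted p = 0.124). Cdc20b, at 0.45, 0.654, 0.44 and 0.442 against 0.854, 0.382, 0.649 and 0.949, overlapped as well (log2 fold change −0.39, SE 0.27, limma adjusted p = 0.306). Mcidas was at 0.58, 0.573, 0.636 and 0.528 against 0.863, 0.626, 1.05 and 1.13 (log2 fold change −0.55, SE 0.20, limma adjusted p = 0.0619); the highest knockdown library just passed the lowest control library, and without the second control library it was called (−0.70, limma adjusted p = 0.0225). At these levels the 0.1 added before the log2 understates a change in Mcidas and Cdc20b.

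Of the 38 axonemal genes, 24 fell on day 5 and 1, Tekt2, rose, with a median of 0.775-fold. Of the 9 dynein arm genes 8 were called, with Dnah1, an inner arm heavy chain, at 1.57, 2.23, 1.84 and 2.34 in shRNA-RUS against 5.87, 5.26, 5.94 and 5.84 in shRNA-CON. The knockdown and control libraries of Dnah1 were well apart (log2 fold change −1.48, SE 0.13, limma adjusted p = 6.74e-05). Dnah5, an outer arm heavy chain, was at 1.6, 1.66, 1.27 and 2.45 against 4.03, 3.1, 3.34 and 3.27 (log2 fold change −0.96, SE 0.18, limma adjusted p = 0.00362), and Dnah6 at 1.15, 1.23, 1.23 and 1.58 against 3.12, 2.24, 2.35 and 2.87 (log2 fold change −0.97, SE 0.15, limma adjusted p = 0.0013). Both genes were without overlap between shRNAs. Dnah2, Dnah9, Dnah12, Dnah7b and Dnali1 also fell, by log2 differences from −0.60 (Dnah12) to −0.18 (Dnali1), and Dnah11 did not pass (log2 fold change −0.29, SE 0.16, limma adjusted p = 0.196). The calls of Dnah12, Dnali1, Dnah7b and Dnah2 were lost in 9, 8, 5 and 1 of the 15 or 16 alternative settings run for each. Dnah7b has the near-identical copies Dnah7a and Dnah7c, with which it can share reads, so its value is uncertain.

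The central pair genes were lower by a median log2 difference of −0.67, and 4 of 6 were called. Spag16 was at 1.8, 2.23, 1.86 and 2.34 in shRNA-RUS against 4.31, 4.35, 4.18 and 4.34 in shRNA-CON (log2 fold change −1.03, SE 0.11, limma adjusted p = 0.000161). The control libraries of Spag16 lay close together, and the knockdown level was 49% of theirs. Cfap54 fell to 46.8% of control (log2 fold change −1.10, SE 0.15, limma adjusted p = 0.000532) and Spag6l to 51.8% (log2 fold change −0.95, SE 0.064, limma adjusted p = 1.9e-05), while Cfap69 stood at 76.1%. Hydin (log2 fold change −0.32, SE 0.20, limma adjusted p = 0.251) and Spag17 (log2 fold change −0.05, SE 0.30, limma adjusted p = 0.925) did not pass. Spag17 was at 0.0834 to 0.226 scaled TPM in shRNA-CON and 0.081 to 0.152 in shRNA-RUS, close to the 0.1 added before the log2. A change in it on day 5 would thus be understated. Spag6l has a copy, Spag6, with which it may share reads.

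Of the 7 ruler, nexin and spoke genes, 6 fell, most of all Rsph4a, a spoke head protein (log2 fold change −0.84, SE 0.11, limma adjusted p = 0.000516), and Ccdc39 (log2 fold change −0.74, SE 0.11, limma adjusted p = 0.000973), and Rsph9 did not pass (log2 fold change −0.04, SE 0.091, limma adjusted p = 0.789). Among the 7 assembly and docking genes 2 fell, Armc4, which docks outer arms (log2 fold change −0.96, SE 0.24, limma adjusted p = 0.0142), and Dnaaf3 (log2 fold change −0.40, SE 0.068, limma adjusted p = 0.00199). Lrrc6, Zmynd10 and Ccdc114 missed the threshold although every knockdown library was below every control library. Among the 9 tektins and other doublet or flagellar genes 4 fell (Cfap53, Cfap65, Cfap43 and Tekt1), 1 rose and 4 did not pass. The calls of Cfap65, Cfap43 and, among the spoke genes, Rsph1 were lost in 9, 6 and 7 of 16 alternative settings. That of Ccdc113, another gene of the ruler, nexin and spoke class, was lost in 3, among them without the third control library (−0.32, limma adjusted p = 0.0523). Without the fourth knockdown library Lrrc6 (−0.70, limma adjusted p = 0.0156) and Cfap44 (−0.50, limma adjusted p = 0.00113) were called lower as well. So were Fam183b without the first control library (−0.47, limma adjusted p = 0.00535), Cfap52 without the third (−0.35, limma adjusted p = 0.0251) and Zmynd10 without the second knockdown library (−0.39, limma adjusted p = 0.0389). Of the other multiciliated-cell genes Mlf1 (−0.50) and Ccdc153 (−0.40) fell, the latter not with quantile normalization (−0.31, limma adjusted p = 0.0531). The count of members called lower was 25 to 42 over the alternative settings, and 24 of the 33 calls of day 5 held in each of them.

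On day 7 the same comparison called nearly the whole set. Of the 51 genes, 48 were called lower, against 25.8% of all 24606 genes tested, and 1, Tekt2, was called higher, against 23.4%. The median log2 difference was −0.92 over the members, which is 0.53 of control, and −0.03 over all genes. In 48 genes every knockdown library was below every control library, which held for 24.7% of all genes tested. Of the 31 genes that fell on day 5, 29 also fell on day 7, and these are 29 of the 48 of day 7. Since 48 of all 51 members fell on day 7, this overlap says little about the genes of day 5. Cfap53 and Rfx2 fell on day 5 and did not pass on day 7 (limma adjusted p = 0.131 and 0.126). The calls of day 7 held in each alternative setting that was run.

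Of the 9 regulators, 8 fell on day 7, and the median over the 9 was 0.534-fold. Gmnc was at 6.17, 6.96, 7.88 and 6.04 scaled TPM in shRNA-RUS against 17.9, 18.1, 18.8 and 20.5 in shRNA-CON (log2 fold change −1.46, SE 0.091, limma adjusted p = 1.65e-06). The groups were far apart, and 3 of the 4 knockdown libraries of day 7 were also below every control library of day 5. Cdc20b was at 11.3, 11.4, 13.2 and 9.38 against 30.2, 27.1, 30.3 and 30.1 (log2 fold change −1.36, SE 0.096, limma adjusted p = 3.38e-06) and Deup1 at 26.7, 25.6, 29.9 and 24.7 against 63.4, 60.6, 62.5 and 64.8 (log2 fold change −1.22, SE 0.060, limma adjusted p = 4.5e-07). For both genes the highest knockdown library stood far below the lowest control library. Mcidas was at 10.9, 13, 15.6 and 11.8 against 26, 24.9, 28.3 and 23.6 (log2 fold change −0.99, SE 0.11, limma adjusted p = 5.25e-05), and Ccno at 21.1, 26.7, 30.5 and 27.1 against 55, 51.3, 51.2 and 41.6 (log2 fold change −0.91, SE 0.12, limma adjusted p = 0.000197). Neither overlapped. Trp73 was at 3.02, 4.32, 4.28 and 3.32 against 6.8, 7.15, 6.92 and 5.37 (log2 fold change −0.79, SE 0.14, limma adjusted p = 0.00131), without overlap.

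Of the factors that act on the cilium genes themselves, Foxj1 and Rfx3 fell. Foxj1 was at 188, 222, 249 and 202 in shRNA-RUS against 335, 335, 375 and 284 in shRNA-CON, or 65.4% (log2 fold change −0.61, SE 0.10, limma adjusted p = 0.000926). Its highest knockdown library was below its lowest control library. Rfx3 was at 25.6, 23.7, 25 and 22.9 against 28.2, 28.5, 29.7 and 29.7 (log2 fold change −0.24, SE 0.046, limma adjusted p = 0.0017), a small fall without overlap. Rfx2 was at 17.1, 19.8, 22.9 and 22.5 against 25.7, 25, 24.5 and 20.8, overlapped and did not pass (log2 fold change −0.21, SE 0.11, limma adjusted p = 0.126), although without the fourth control library it was called (−0.28, limma adjusted p = 0.0478).

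**Figure D3:**
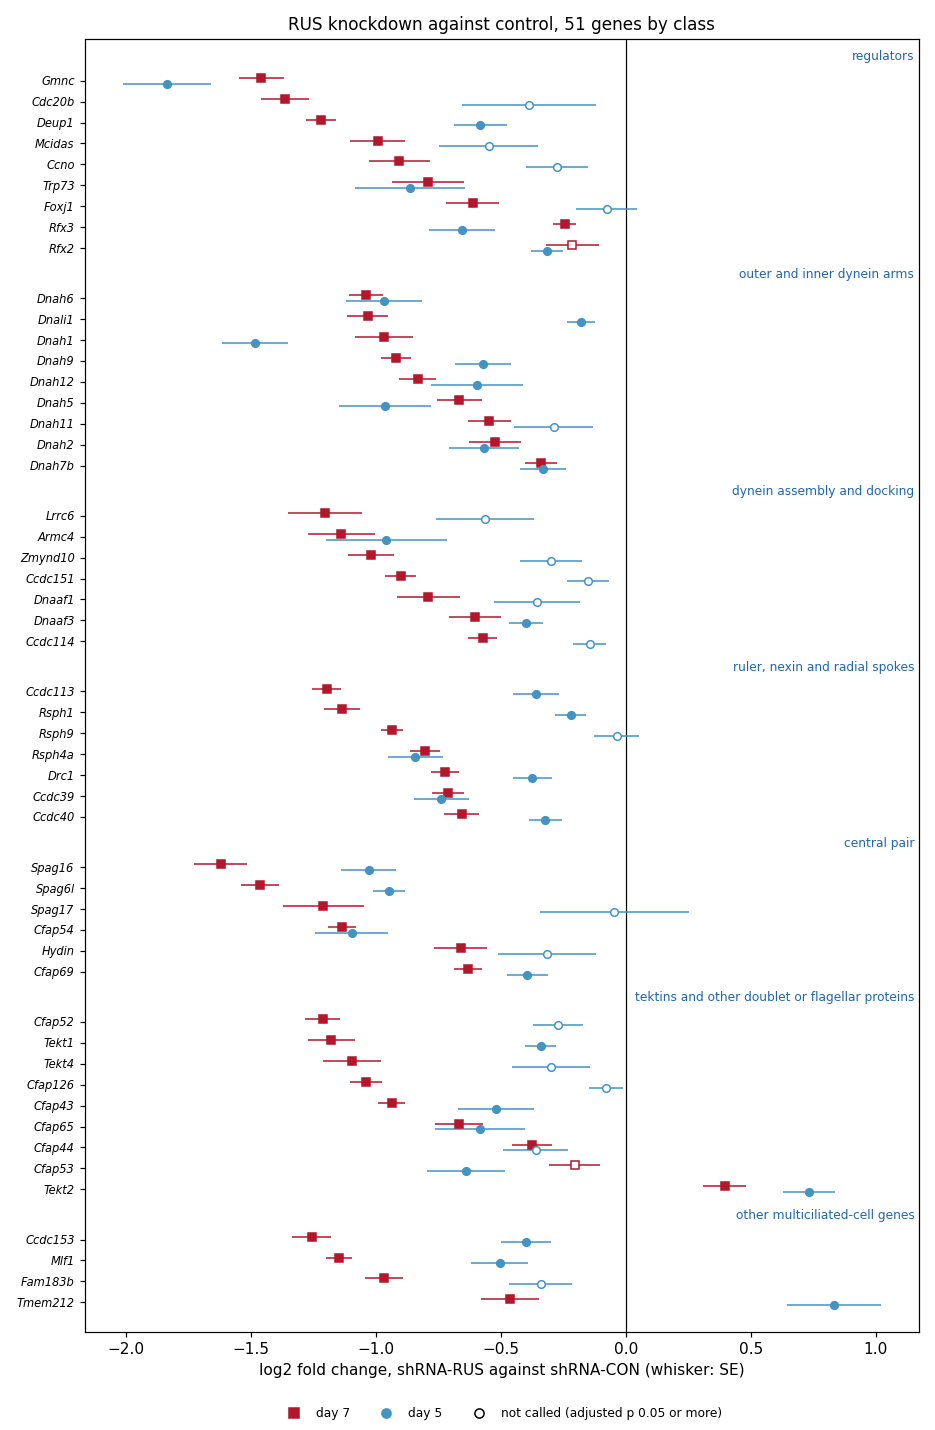
Log2 fold change of shRNA-RUS against shRNA-CON for each of the 51 genes, grouped by class, on day 5 (circles) and day 7 (squares). Whiskers are SE from limma and open symbols mark genes that did not pass an adjusted p of 0.05. On day 7, 48 genes lie left of 0 and passed, while Tekt2 lies right of 0 on both days.

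Of the 38 axonemal genes, 36 fell on day 7, and the median over the 38 was 0.532-fold. All 6 central pair genes fell, and their median log2 difference of −1.17 was the lowest of the classes. Spag16 was at 1.73, 1.66, 1.97 and 1.58 in shRNA-RUS against 5.39, 5.13, 5.35 and 6.49 in shRNA-CON, or 32.5% of control (log2 fold change −1.62, SE 0.11, limma adjusted p = 2.12e-06). Spag6l was at 25.4, 26.2, 28.1 and 21.5 against 72.3, 67.4, 72.2 and 69.2 (log2 fold change −1.46, SE 0.077, limma adjusted p = 6.33e-07). In these central pair genes no knockdown library reached the level of any control library. Spag17, which had not passed on day 5, was at 43.2% of control (log2 fold change −1.21, SE 0.16, limma adjusted p = 0.00019).

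All 9 dynein arm genes fell, from −0.34 (Dnah7b) to −1.04 (Dnah6). Dnali1, the inner arm light chain with the highest level of this class, was at 27.5, 27.8, 31.8 and 23.7 against 60.2, 56.4, 57.5 and 54 (log2 fold change −1.03, SE 0.082, limma adjusted p = 6.88e-06). All 7 assembly and docking genes fell, by a median of −0.90, led by Lrrc6 (−1.20) and Armc4 (−1.14), and Ccdc151 was at 18.8, 18.6, 20.8 and 18.7 against 38.2, 35.4, 38.2 and 33.5 (log2 fold change −0.90, SE 0.061, limma adjusted p = 2.82e-06). All 7 ruler, nexin and spoke genes fell as well. Rsph1, the spoke head gene that is among the most abundant of the set, was at 69.96, 75.2, 78.2 and 61.3 against 158, 149, 164 and 159 (log2 fold change −1.14, SE 0.073, limma adjusted p = 1.94e-06). Ccdc113 was at 43.6% and Rsph9 at 52.3% of control. Among the tektins and other doublet or flagellar genes 7 of 9 fell, among them Cfap52 (−1.21), Tekt1 (−1.18) and Tekt4 (−1.10). All 4 other multiciliated-cell genes fell, from −0.46 (Tmem212) to −1.26 (Ccdc153).

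In shRNA-RUS cultures the program still rose from day 5 to day 7. Of the 51 genes, 42 were called higher, against 35% of all 23789 genes tested, and 3, Cfap126, Dnali1 and Drc1, were called lower, against 25.8%. In 38 genes every day 7 library was above every day 5 library, which held for 30% of all genes tested. The median log2 difference was 0.90 over the members and 0.13 over all genes. With TPM as deposited the median of all genes moved to 0.415, the calls over all genes went from 8317 higher and 6135 lower to 11801 and 3545, and 46 members were called higher and 1 lower. With quantile normalization 40 members were called higher and 5 lower, and over all genes 7005 and 6857 were. Of the 9 regulators 8 were called higher, with a median over the class of 5.44-fold, and of the 38 axonemal genes 30, with a median over the class of 1.75-fold. Cdc20b (19.3-fold), Mcidas (18.9-fold) and Deup1 (10.9-fold) again rose most of the regulators, and Foxj1 did not pass (log2 fold change 0.20, SE 0.12, limma adjusted p = 0.164). With TPM as deposited, and likewise with quantile normalization, all 9 regulators were called higher, Foxj1 among them. Ccdc114, Dnaaf3, Rsph9, Spag16 and Tekt2 passed in shRNA-CON and did not pass in shRNA-RUS. Of these, Spag16 was called lower in shRNA-RUS without the first or the third knockdown library of day 5 or the third of day 7 (−0.29, −0.28 and −0.29), and Dnaaf3 was called higher without the first knockdown library of day 7 (0.24, limma adjusted p = 0.0108).

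**Figure D4:**
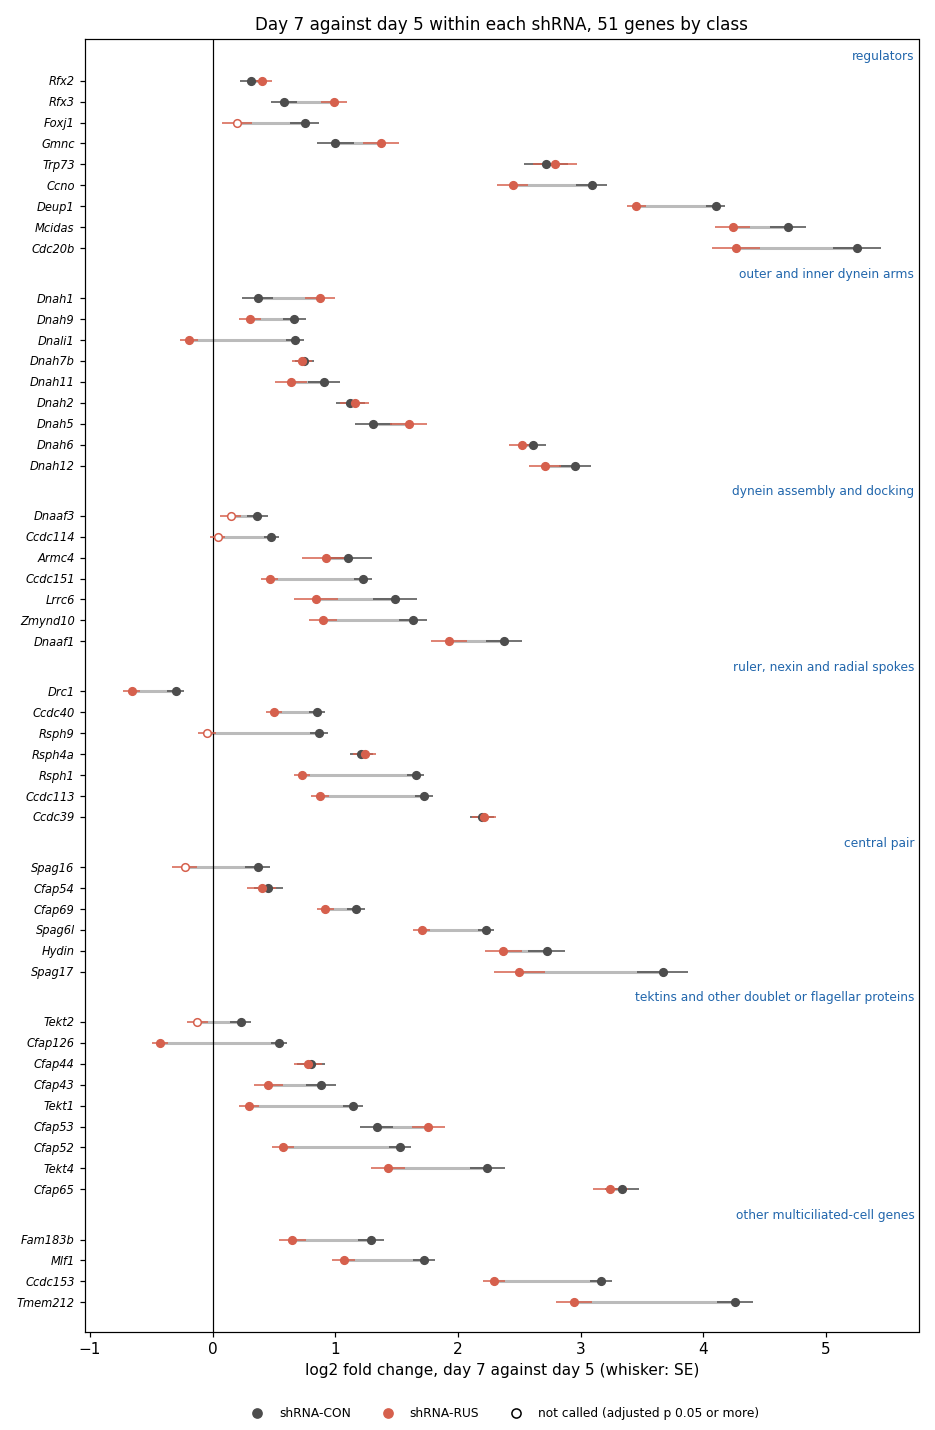
Log2 fold change of day 7 against day 5 for each of the 51 genes by class, in shRNA-CON (dark) and shRNA-RUS (red), joined by a grey line. Whiskers are SE from limma and open symbols mark genes that did not pass an adjusted p of 0.05. Cdc20b, Mcidas and Deup1 rose most of the regulators in both groups, and Cfap126 and Dnali1 lie on opposite sides of 0.

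Whether the knockdown effect itself differed between the days was tested as an interaction in the fit over 16 libraries. Of the 51 genes, 26 had a knockdown effect that was lower on day 7 than on day 5 (more negative or, for Tekt2, less positive), against 14.6% of all genes tested, and 1, Dnah1, had one that was higher, against 15.2%. Of the regulators, 4 of 9 were called (Cdc20b, Deup1, Ccno and Foxj1), and the class median was −0.45. Foxj1 moved from no call on day 5 to a fall on day 7, with a difference of −0.55 (SE 0.17, limma adjusted p = 0.0233). Foxj1 was no longer called in 3 of 24 alternative settings, namely with TPM as deposited (−0.38), with quantile normalization (−0.38) and without the first control library of day 5 (−0.51, limma adjusted p = 0.0502). With TPM as deposited 2 of the 9 regulators were called. Of the axonemal genes, 18 of 38 were called lower. The largest of these differences was that of Spag17 (−1.17, limma adjusted p = 0.00699), followed by Cfap126 (−0.97), Cfap52 (−0.95), Rsph1 (−0.93) and Rsph9 (−0.91). On day 5 Spag17 was near the 0.1 added before the log2, where a change is understated, so its place in this ranking is uncertain. By part, 5 of 7 ruler, nexin and spoke genes, 5 of 9 tektins and other doublet genes, 3 of 6 central pair genes, 3 of 7 assembly and docking genes and 2 of 9 dynein arm genes were called. All 4 other multiciliated-cell genes were called. Dnah1 had its larger fall on day 5 (0.51 for the difference, limma adjusted p = 0.0386), but this call and those of Tekt2 and Dnah9 were lost in 13, 13 and 17 of 24 alternative settings. With TPM as deposited, which moves the median of all genes to 0.192 in this contrast, 19 members were called lower and 3 higher, and over all genes the split of higher and lower calls went from 3626 and 3464 to 5700 and 2053.

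A few members departed from the rest. Tekt2, a tektin of the doublet filaments, was at 2.94, 3.35, 3.24 and 2.73 in shRNA-RUS against 1.76, 1.8, 1.79 and 1.83 in shRNA-CON on day 5 (log2 fold change 0.73, SE 0.10, limma adjusted p = 0.000797), and at 2.89, 2.62, 2.67 and 3 against 2.13, 2.12, 2.15 and 2.09 on day 7 (log2 fold change 0.40, SE 0.086, limma adjusted p = 0.00379). It was higher in every knockdown library than in any control library of the same day, while Tekt1 and Tekt4 were lower on day 7. At 20.8% of its exon bases Tekt2 overlaps Gm12945 on the opposite strand, and whether the counting used strand is not given in the sources used here, so its value is uncertain. Tmem212, a membrane protein gene of ciliated cells, was at 1.17, 1.26, 1.5 and 1.19 against 0.706, 0.467, 0.824 and 0.73 on day 5 (log2 fold change 0.83, SE 0.19, limma adjusted p = 0.00832) and at 11.6, 10.6, 11.2 and 8.85 against 16.4, 14.6, 16 and 12.1 on day 7 (log2 fold change −0.46, SE 0.12, limma adjusted p = 0.00804). It was thus higher in the knockdown on day 5 and lower on day 7, and the change of its effect was −1.31 (limma adjusted p = 0.000296). Drc1, a nexin link protein, was at 33.3, 33.4, 37.6 and 41.5 in shRNA-CON on day 5 and at 30.5, 27, 28.6 and 31.9 on day 7. In shRNA-RUS it was at 28.2, 28.1, 26.8 and 28.7 on day 5 and at 18.1, 16.9, 17.8 and 17.8 on day 7. It was called lower on day 7 than on day 5 in both groups (−0.30 and −0.66), though the call in shRNA-CON was lost with TPM as deposited. Cfap126, a doublet microtubule protein, was at 85, 95.5, 86.7 and 99.2 in shRNA-CON on day 5 and at 141, 129, 133 and 129.6 on day 7. In shRNA-RUS it was at 88.1, 90.05, 88.6 and 79.2 on day 5 and at 68.5, 63.7, 68.5 and 56.7 on day 7. It rose in the control and fell in the knockdown, by log2 differences of 0.54 and −0.43, as did Dnali1 (0.67 and −0.19), but both falls were lost with TPM as deposited, where the change of Dnali1 was 0.13. That of Dnali1 was also lost without the first (−0.17) or second (−0.18) knockdown library of day 5 or the fourth of day 7 (−0.12).

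**Figure D5:**
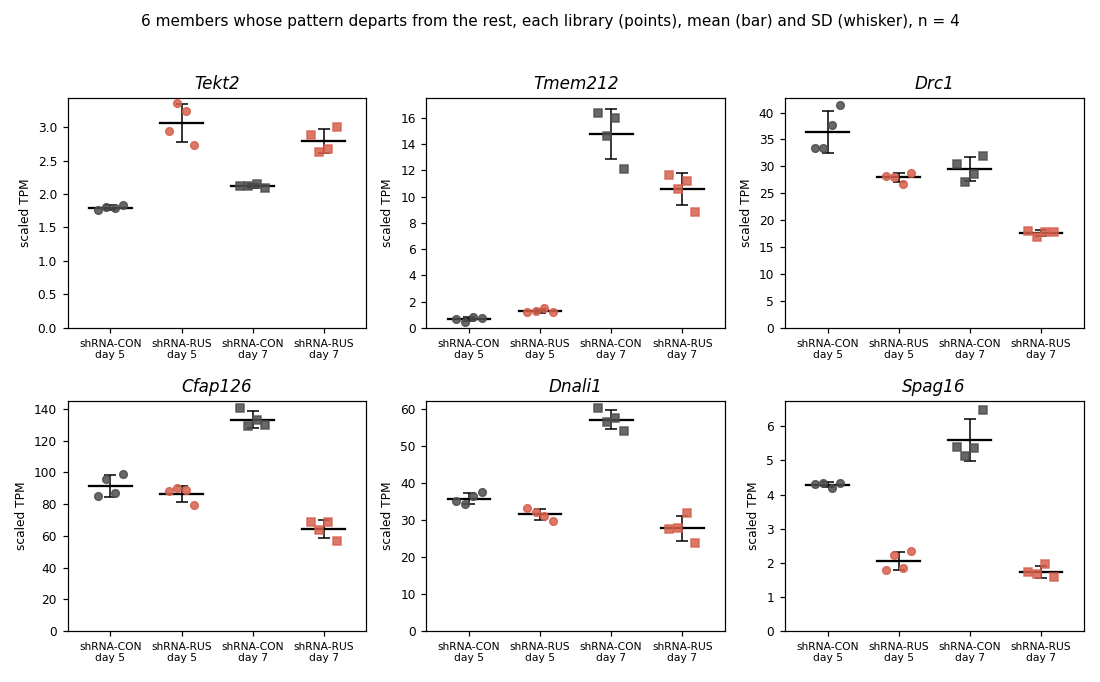
Level in scaled TPM of 6 members whose pattern departs from the rest, in the 16 libraries by shRNA and day. Points are libraries, bars are means and whiskers are SD (n = 4). Tekt2 is higher in shRNA-RUS on both days, Tmem212 on day 5, and Drc1 is lower on day 7 in both shRNA groups.

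Regulators and axonemal genes were set side by side on counts and medians, with no test between the classes. On day 5 the knockdown called 5 of 9 regulators and 24 of 38 axonemal genes lower, with medians of 0.684-fold and 0.775-fold. On day 7 it called 8 of 9 and 36 of 38 lower, with medians of 0.534-fold and 0.532-fold. Over time the medians were 6.58-fold and 2.23-fold in shRNA-CON and 5.44-fold and 1.75-fold in shRNA-RUS. Within the regulators the genes of the early and centriole-producing steps (Gmnc, Cdc20b, Deup1, Mcidas, Ccno and Trp73) were at 36.4% to 57.8% of control on day 7, and Foxj1, Rfx3 and Rfx2 at 65.4%, 84.5% and 86.2%. On day 5 the genes did not divide this way, since the log2 difference of Rfx3 (−0.66) lay below those of Deup1 (−0.58), Mcidas (−0.55), Cdc20b (−0.39) and Ccno (−0.27), of which Deup1 passed the test. Summed over the class, regulators were at 578 ± 44.4 in shRNA-CON, and 348 ± 38.4 with shRNA-RUS, on day 7, and axonemal genes at 1375 ± 20.5 and 729 ± 49.3 (SD, n = 4). Foxj1 makes up most of the regulator sum, so the sum follows Foxj1.

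Some values carry a limit of annotation, since whether the counting used strand is not given in the sources used here. In GENCODE vM21 (GRCm38), 20 of the 53 genes share exon bases with another gene, and 7 share at least 10% of theirs with genes on the opposite strand: Cdc20b, Dnaaf1, Dnaaf3, Zmynd10, Ccdc39, Tekt2 and Spag17. Spag17 shares 15.7%, with Wdr3, which is protein-coding, and Spag17os, so its value is uncertain. For Dnaaf1 the partner is Taf1c and for Ccdc39 it is Ttc14, both protein-coding, so that reads of each pair may not be told apart.

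The genes around the set were examined through lists of the same pathways, beside 17.9% called lower and 14.8% called higher over all genes on day 5, and 25.8% and 23.4% on day 7. Of the other motile cilium genes, 34 of 76 tested fell and 1 rose on day 5, and 68 of 77 fell and 1 rose on day 7, with a median log2 difference of −0.92. The largest falls on day 7 were those of Dnah7a (−1.89), Cfap161 (−1.44) and Dynlrb2 (−1.35), and Spag1, a dynein assembly factor, rose (0.33). Dnah7a can share reads with its near-identical copy Dnah7b, so its value is uncertain too. Of 10 other regulators of multiciliation, 5 fell on day 5, and 5 fell and 1 rose on day 7. Myb, a transcription factor that acts in centriole amplification and in cycling progenitors alike, fell on both days (−1.51 and −1.44). Gmnn, the geminin that binds Gmnc and Mcidas and also restrains DNA replication, fell as well (−0.66 and −1.43), and Rfx7 rose on day 7 (0.32). Of 14 centriole duplication genes, 10 fell on day 5 and 14 on day 7, led by Plk4 (−1.22) and Stil (−1.22) on day 7, which cycling cells use as well. Of 56 genes of the primary cilium and intraflagellar transport, 19 fell and 7 rose on day 5, and 42 fell and 7 rose on day 7, with a median log2 difference of −0.36 over all 56. The primary cilium is the single immotile cilium of most cells, and its genes include Ift88 (−0.88 on day 7) and Rpgrip1l (−0.87).

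Markers of the cells that could carry or dilute the program were measured beside it, and their calls stand against the same shares over all genes (17.9% lower and 14.8% higher on day 5, 25.8% and 23.4% on day 7). Of 5 ependymal genes that are not part of the cilium, 1 rose (Mia) and 1 fell (Cd24a) on day 5, and all 5 fell on day 7. Their summed level was 468 to 522 and 415 to 469 scaled TPM in shRNA-CON and shRNA-RUS on day 5, and 636 to 667 and 509 to 525 on day 7. These 5 genes were thus present in cultures labelled as NSC, though other neural cells also express some of them, such as S100b and Cd24a. Of the 6 neural stem cell and radial glia genes 3 rose and 2 fell on day 5, and 2 rose and 2 fell on day 7, with log2 differences down to −0.87 and −1.19, so the list did not move one way. These genes summed to 11550 to 13710 in shRNA-CON, and 16820 to 20370 with shRNA-RUS, on day 5, and to 6037 to 6362 and 6433 to 7025 on day 7. Of the choroid plexus genes, which mark another ciliated tissue of the ventricles, 4 of 10 fell and 2 rose on day 5, and 5 of 12 fell and 1 rose on day 7. The choroid plexus sum was 98.6 to 103 in shRNA-CON, and 91.4 to 101 with shRNA-RUS, on day 5 and 114 to 121 and 71.1 to 79.6 on day 7. Among the listed genes Ttr and Kl were near 0, with at most 0.755 scaled TPM of Ttr and 0.0431 of Kl in any library. Other listed genes therefore make up the sum, and the log2 differences of the list ran from −1.44 to 2.26 on day 7. Ttr and Kl thus do not stand for the whole list. Cycling-cell genes fell on both days, 5 of 5, and their sum was 614 to 643 in control and 347 to 392 in knockdown libraries on day 5 and 636 to 651 and 247 to 279 on day 7. All 4 oligodendrocyte lineage genes fell on both days, and of the 5 microglia genes 2 fell on day 5 and 5 on day 7. Of the 7 astrocyte genes 2 rose and 1 fell on day 5 and 3 rose and 1 fell on day 7, and of the 7 neuron genes 2 rose and 2 fell on day 5 and 3 rose and 2 fell on day 7. Of the 5 fibroblast and vascular genes tested 1 rose on day 5 and 2 rose on day 7, and none was called lower. Their sum was 27.3 to 31.3 in control and 25.7 to 36.4 in knockdown libraries on day 5, which overlapped, and 14.2 to 15.6 and 29.7 to 33.9 on day 7, which did not. The astrocyte sum was 5367 to 5597 and 6924 to 7156 on day 5 and 3277 to 3426 and 3886 to 4066 on day 7, higher in each knockdown library, and the neuron sum, which overlapped on both days, was 485 to 554 and 498 to 560.4 and then 708 to 788 and 659 to 784. A sum gives most weight to abundant genes. The median log2 difference on day 5 and day 7 was 0.01 and 0.07 over the astrocyte genes. Over the stem cell and radial glia genes it was 0.12 and 0.06. The microglia sum was 74.6 to 81 in control and 63.8 to 82.4 in knockdown libraries on day 5 and 177 to 190.1 and 73.4 to 95.1 on day 7. The part of these shifts in the falls of the member genes was not tested.

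Dnai1 and Dnai2, intermediate chains of the outer dynein arm, are listed as Dnaic1 and Dnaic2. On day 5 Dnaic1 was at 19.2, 23.3, 20.5 and 21.7 in control and at 23.4, 21.7, 22 and 18.4 in knockdown libraries. On day 7 it was at 29.4, 26, 24.9 and 26.2 in control and at 11.3, 13.4, 12.1 and 10.6 in knockdown libraries. The shRNA groups overlapped on day 5 and stood apart on day 7 (log2 fold change −1.15, SE 0.080, limma adjusted p = 3.23e-06). It rose from day 5 to day 7 in shRNA-CON (0.33) and fell in shRNA-RUS (−0.84), with a change of the knockdown effect of −1.18 (limma adjusted p = 1.04e-05). On day 5 Dnaic2 was at 10.9, 11.4, 11.7 and 12.1 in control and, overlapping, at 10.3, 11.7, 10.7 and 12.2 in knockdown libraries. On day 7 it was at 31.1, 29.4, 30.2 and 27.3 in control and at 19.1, 20, 22.4 and 19.5 in knockdown libraries, all of them lower. It rose in both groups (1.35 and 0.84) and was lower in shRNA-RUS on day 7 (log2 fold change −0.53, SE 0.065, limma adjusted p = 0.000108).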

How the data were processed

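The 16 RNA-seq libraries of NSC were analysed, 4 for each shRNA at each day. Per the study's methods, reads of polyA RNA were mapped by STAR (mm10 with the transcripts of GRCm38.99) and quantified by RSEM, and the authors deposited TPM for each library in 1 table a day. The labels and the study's methods differ in the dose of FGF2 and in the strength of GlutaMAX. The tables also hold the authors' DESeq2 comparison: log2 fold changes, a test score, p-values and adjusted p-values, which were not used, and a mean of normalized signal (the base mean), which was deposited by the authors and stood between 17.6 and 18058.4 for the members. No counts are given, so library depth is unknown.

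Each library's TPM were scaled by a factor, its median ratio to the geometric mean of the libraries in a fit over genes that reach 1 TPM throughout, 0.1 was added, and log2 values were tested with limma 3.58.1 in R 4.3.3 (lmFit, eBayes with trend, two-sided, Benjamini-Hochberg, threshold 0.05) for genes whose mean reached 0.1 TPM. Fold changes are on this log2(TPM + 0.1) scale, which understates changes of low genes. Each day had its own fit of 8 libraries; day contrasts and the interaction came from 1 fit of 16, without 106 lines whose symbols differ between the tables. Summaries and figures used Python 3.11.15, numpy 2.4.6, pandas 2.3.3 and matplotlib 3.10.9. The test was tested on simulated data. No 2 libraries of the 120 pairs held the same values. The member genes, their classes and the other lists were chosen with earlier results of these data known, so no list was tested. Of the other lists the 3 genes with the largest called change in each direction and a mean from 1 TPM up could be named, and a few were taken from these. Alternatives were other pseudocounts, filters and scalings, no trend, a replicate block and leaving out each library. Promoters came from RefSeq (GRCm38.p6) and gene overlaps from GENCODE vM21, a release other than the authors'. The promoters of Foxj1, Rsph1, Rsph4a, Cfap53, Cfap54, Cfap65, Armc4, Dnaaf1 and Lrrc6 were not analysed here.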

Additional observations from a re-analysis of the deposited data

Results flagged for a closer look

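In 11 of the 204 groups of 4 libraries tested, 51 genes in 4 groups, 1 library stood far from the other 3 by Dixon's test, and chance alone gives about 1 in 20. In scaled TPM these were, in shRNA-CON on day 5, the fourth library of Foxj1 (236.9, high) and the second libraries of Dnah1 (5.263, low) and Zmynd10 (13.49, high). In shRNA-RUS on day 5 they were the second library of Cdc20b (0.6545, high) and the fourth libraries of Dnah12 (1.035, high) and Cfap69 (31.4, high). In shRNA-CON on day 7 they were the second libraries of Cdc20b (27.1, low) and Dnah2 (6.91, high) and the first library of Tekt1 (70.22, high). In shRNA-RUS on day 7 they were the third libraries of Ccdc151 (20.83, high) and Cfap69 (55.79, high).

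In 27 genes the knockdown effect differed between day 7 and day 5 by the interaction test of limma (adjusted p under 0.05). The difference on the log2 scale, day 7 minus day 5, was positive for Dnah1 (0.51) and negative for the other 26. These were Tmem212 (−1.31), Spag17 (−1.17), Cdc20b (−0.98), Cfap126 (−0.97), Cfap52 (−0.95), Rsph1 (−0.93), Rsph9 (−0.91), Ccdc153 (−0.87), Dnali1 (−0.86), Tekt1 (−0.85), Ccdc113 (−0.85), Tekt4 (−0.81), Ccdc151 (−0.76), Zmynd10 (−0.73), Mlf1 (−0.65), Deup1 (−0.65), Ccno (−0.64), Fam183b (−0.64), Spag16 (−0.60), Foxj1 (−0.55), Spag6l (−0.53), Ccdc114 (−0.44), Drc1 (−0.36), Dnah9 (−0.36), Tekt2 (−0.35) and Ccdc40 (−0.35).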

How the results depend on the processing

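Each count of called members was recomputed with pseudocounts of 0.01 and 1, with a filter at 1 TPM and with none, with TPM as deposited, with quantile normalization, without the trend, with a replicate block and without each library in turn. The count of members called lower on day 7 was 48 to 49 without 1 library and 48 under the other settings. The ranges were 26 to 32 and 25 to 42 for members lower on day 5, 48 to 50 and 47 to 50 for members higher over time in shRNA-CON, 42 to 43 and 40 to 46 in shRNA-RUS, and 23 to 27 and 19 to 32 for members with a lower effect on day 7. Members lower over time in shRNA-RUS were 3, against 1 with TPM as deposited and 5 with quantile normalization. Over all genes these calls were 6135, 3545 and 6857. The calls lower on day 5 over all genes moved as well, from 4034 to 2735 with a replicate block and to 6037 with TPM as deposited. The one count of a class that moved by over 1.5 times was that of regulators with a lower effect on day 7, which went from 4 to 2 with TPM as deposited. The settings kept 24 of 33 calls on day 5, 49 of 49 on day 7, 47 of 51 over time in shRNA-CON, 40 of 45 in shRNA-RUS and 19 of 27 for the difference between days. Some log2 differences changed sign. With quantile normalization these were Spag17 on day 5 (0.209), Tekt2 over time in shRNA-CON (−0.0106), and over time in shRNA-RUS Dnaaf3 (−0.0356), Ccdc114 (−0.0564) and Rsph9 (0.0348). With TPM as deposited they were, over time in shRNA-RUS, Spag16 (0.0786), Dnali1 (0.131), Tekt2 (0.188) and Rsph9 (0.279, limma adjusted p = 0.000657). Without 1 library each, the values of genes that had not passed ranged on day 5 from −0.143 to 0.12 for Spag17, −0.156 to 0.0221 for Foxj1 and −0.0976 to 0.0427 for Rsph9, and over time in shRNA-RUS from −0.0112 to 0.0807 for Ccdc114 and −0.122 to 0.0169 for Rsph9. Without the fourth knockdown library of day 5, 4 members in place of 1 had a higher effect on day 7. Over all genes such calls also went up, from 3626 of 23789 to 4392 of 23868. The cause of these changes was not tested. Replicate numbers are shared between groups, but same-numbered libraries did not deviate together (16 pairs, correlations from −0.329 to 0.109), so the numbers were not treated as pairs. With the replicate number as a block, members lower were 25 on day 5 and 48 on day 7, members higher over time 49 and 42, and members with a lower effect on day 7 were 24. Over all genes this setting called 2735 lower on day 5 and 5895 on day 7. It called 6264 and 8189 higher over time, and 3257 with a lower effect on day 7. Without counts, what depth limits is unknown.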

Other observations

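In some groups many members stood highest or lowest in the same library. In shRNA-RUS on day 7 the third library was the highest of 4 for 39 of 51 genes and the fourth was the lowest for 33. In shRNA-RUS on day 5 the fourth library was the highest for 26 genes and the lowest for 13. In shRNA-CON the most that 1 library reached was 17 genes as the highest and 24 as the lowest, both on day 7, while on day 5 each library was the highest for 9 to 16 genes and the lowest for 9 to 15. These ranks were not counted over all genes, so whether they are particular to the members is unknown, and the cause was not tested.

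Members with and without the X-box arm GTTGCC in a promoter were set side by side as values, with no test. The 20 members with an arm had a median log2 difference under the knockdown of −0.36 on day 5 and −0.98 on day 7, and the 22 without one had −0.39 and −0.91. From day 5 to day 7 in shRNA-CON the medians were 1.68 with an arm and 1.06 without, and in shRNA-RUS they were 0.94 and 0.76.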
